A study of Xenopus laevis with 8 samples.

Results

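Genes of the extracellular matrix and of the receptors that hold cells to it were examined in *Xenopus laevis* animal caps in which the transcription factor EBF3 was switched on. The members are all non-control probes of the array whose description names a collagen, laminin, fibronectin, fibrillin, fibulin, nidogen, tenascin, thrombospondin, SPARC, integrin, syndecan, glypican, matrix metalloproteinase, ADAM or TIMP. This rule took 51 of the 21495 probes. Of the 15 names in it, 11 had at least 1 probe, while fibrillin, fibulin, nidogen and tenascin had 0. The 51 probes comprise 8 collagens, 4 matrix glycoproteins, 9 integrin subunits, 3 cell surface proteoglycans, 13 matrix metalloproteinases, 4 ADAMs, 1 TIMP and 9 other proteins whose description carries one of these names, such as enzymes of collagen maturation, syndecan-binding proteins and the FLRT family. The rule reads descriptions and no measured values, but the members were chosen with earlier results of these data known. Of the probes, 7 are described only as expressed sequence tags that resemble a named protein.

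All embryos received 0.2 ng of Noggin mRNA at the one-cell stage, which turns animal cap ectoderm toward a neural fate, and caps were cut at stage 9. On the 4 active EBF3 arrays, the channel of cyanine 3 (Cy3) carried RNA of caps that expressed hGR-XEBF3 from 1 ng of mRNA and were kept in 30 μM dexamethasone (DEX) for 4.5 hours. hGR-XEBF3 joins EBF3 to the part of the human glucocorticoid receptor that binds hormone (hGR) and becomes active in DEX. On the 4 DEX control arrays, Cy3 carried caps that expressed hGR alone from 0.4 ng of mRNA, with the same DEX treatment. On all 8 arrays, the channel of cyanine 5 (Cy5) carried caps that expressed hGR-XEBF3 and received no DEX. The untreated caps therefore also held the fusion protein, dyes were never exchanged, and the comparison group of hGR caps without DEX is not part of the arrays analysed here. Each of the 4 replicate experiments has 1 array of each kind.

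The extracellular matrix is the meshwork of secreted proteins outside cells. Collagens give it tensile strength, fibronectin and laminin are the glycoproteins to which cells attach, and thrombospondins and SPARC modulate that attachment. Integrins are receptors made of one α and one β subunit that bind these proteins outside the cell and link to the actin cytoskeleton and to kinases inside. Syndecans and glypicans are heparan sulfate proteoglycans of the cell surface that serve as co-receptors for growth factors. Matrix metalloproteinases and ADAMs cut matrix and cell surface proteins, and TIMPs inhibit them. In the frog blastula, the inner face of the animal cap assembles fibronectin fibrils, on which mesoderm migrates at gastrulation.

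Values are log2 ratios of Cy3 to Cy5, so that a value above 0 means a higher signal in DEX-treated than in untreated caps. On the DEX control arrays, these caps also differ in the injected construct. Arrays were not centered, and their medians over all probes ran from -0.08 to 0.24 with active EBF3 and from -0.02 to 0.18 in the DEX control. Over the whole array, 51.8% to 58.9% of probe spots per array were well above background in Cy3 and 58.6% to 62.9% in Cy5. Arrays of replicates 1 and 2 carry 1 spot per probe and were scanned at 10 μm. Those of replicates 3 and 4 carry 2 and were scanned at 5 μm. The lowest log2 Cy5 signal well above background was 5.93 to 7.19 on the former and 3.02 to 4.22 on the latter. Among the 51 members, 24 were well above background in both channels on all 8 arrays, 12 in neither channel of any array and 15 lay between. The last 2 sets hold most of the protein-cutting enzymes: 2 of 13 matrix metalloproteinases and 1 of 4 ADAMs were well measured throughout, against 6 of 9 integrin subunits and 9 of 9 of the other proteins. No member had a saturated spot, and all 51 had a value on all 8 arrays and were tested. The caps are bulk samples, in which a change in the share of a cell type and a change in RNA per cell cannot be told apart.

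On the active EBF3 arrays, 6 of 51 members (11.8%) were called higher with DEX and 0 lower, where a call needs an adjusted p under 0.05 and a change of at least 2-fold (limma, Benjamini-Hochberg adjusted over the 21357 probes tested). Of all probes, 3.03% were called higher and 2.84% lower. Without the 2-fold requirement, 8 members (15.7%) were higher and 3 (5.88%) lower, against 4.01% and 4.4% of all probes. Among the 24 members well above background throughout, 6 were higher and 2 lower at any fold. The shares of all probes include dim ones, and no share was computed for probes as bright as the 24. The 8 include *mt3-mmp*, which no array measured well above background. The 6 called members are the cartilage collagen *col9a3*, the integrin subunit *itga3*, the thrombospondin *thbs3*, the transmembrane proteins *flrt3* and *flrt2*, and the adaptor *shc1*. They come from 4 of the classes, and 3 of them are matrix or receptor components in the narrow sense. The median log2 ratio of the 51 members was 0.20, beside 0.08 over all probes, and that of the 24 well above background throughout was 0.16. As differences from the DEX control, the medians were -0.01 for the 51, 0.16 for the 24 and -0.08 over all probes. The medians over all probes also include dim ones, which the 24 leave out.

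**Figure D1:**
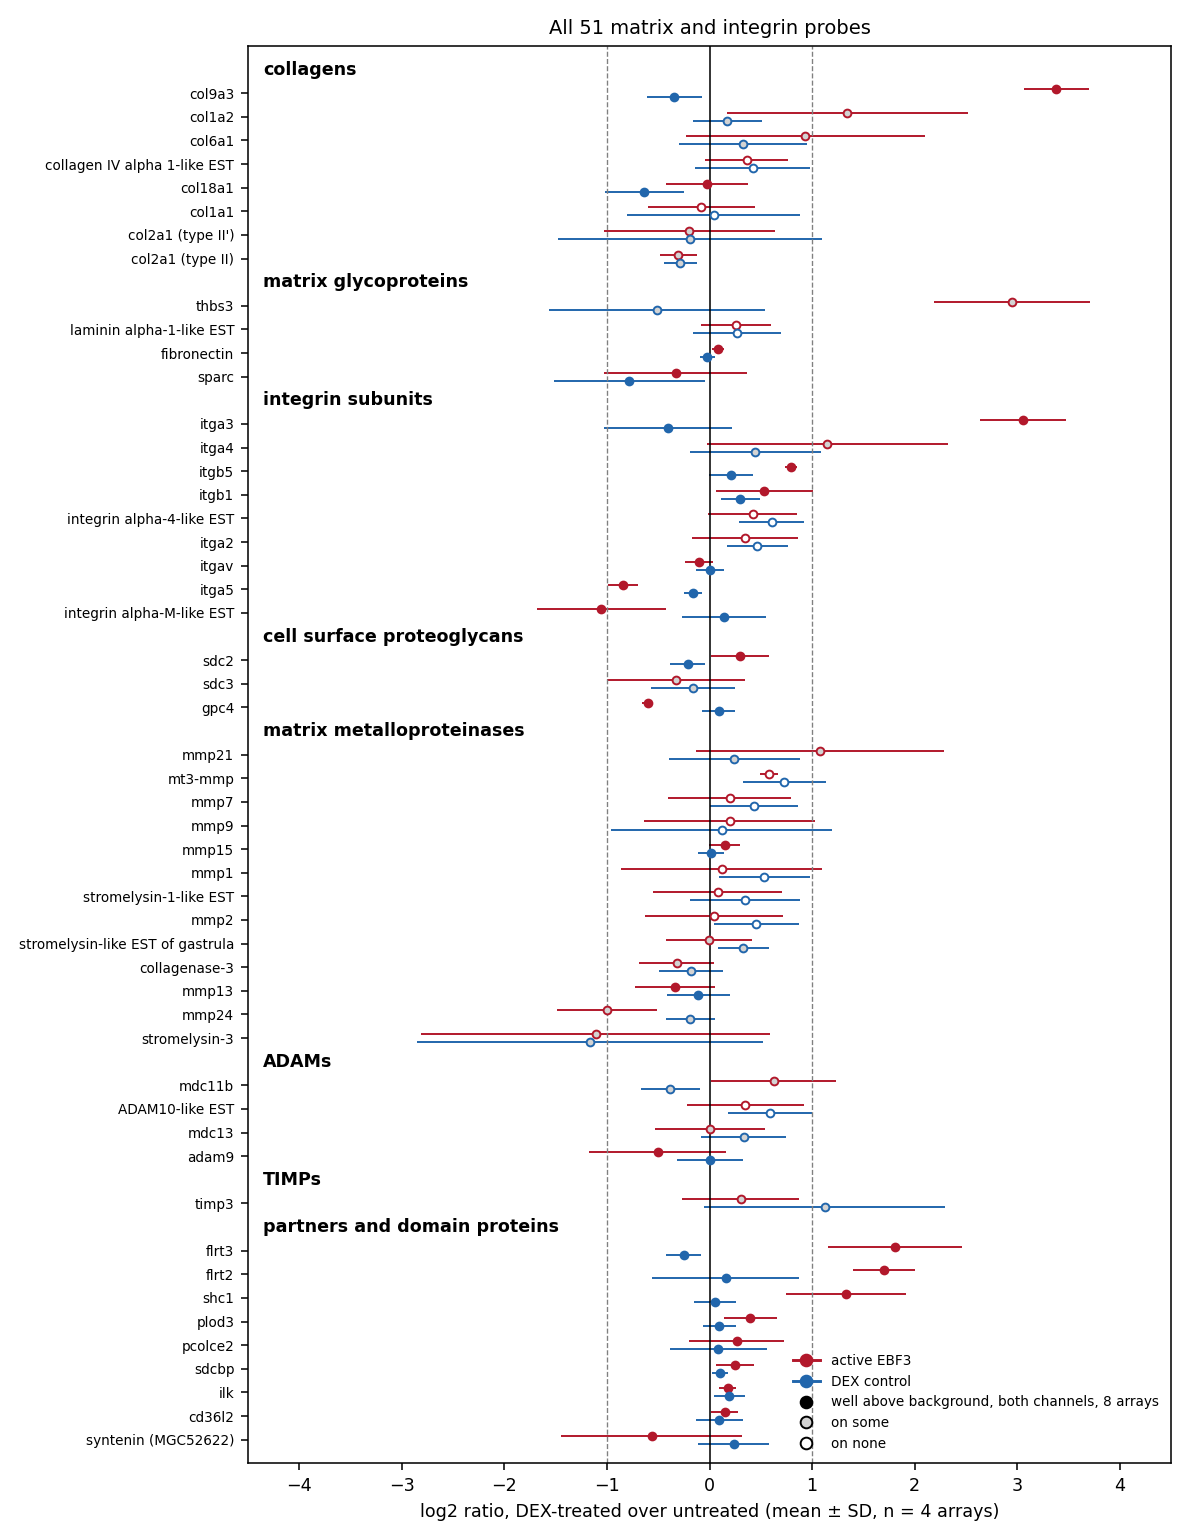
Mean log2 ratio of DEX-treated over untreated caps for each of the 51 probes, by class, with bars of 1 SD over n = 4 arrays (red, active EBF3; blue, DEX control). Filled points are probes well above background in both channels on all 8 arrays (24 probes), grey points on some and open points on none (12 probes), and dashed lines mark 2-fold. The 3 red points above 2.9 are *col9a3*, *itga3* and *thbs3*, whose blue points lie between -0.51 and -0.34.

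On the DEX control arrays, 0 members were called in either direction, as were 0% of all 21256 probes tested by limma after Benjamini-Hochberg adjustment. At unadjusted p under 0.05 and 2-fold, limma gave 1 member higher and 0 lower, against 0.169% and 0.4% of all probes. The methods' t-test gave 0 member calls after adjustment. A direct comparison of both groups of arrays, fitted without regard to replicate number, sets hGR-XEBF3 beside hGR, both in DEX. In it, 6 members (11.8%) were called higher and 0 lower, against 2.42% and 1.44% of all 21197 probes tested. At any fold, 6 (11.8%) were higher and 2 (3.92%) lower, against 2.72% and 1.88% of all probes. With the replicate number as a block, these 6 calls stayed and 1 member was called lower, the tag that resembles integrin αM, at -1.19 (adjusted p = 0.0474 from limma). The 6 called are the same members, and the test uses the same active EBF3 arrays, so it is not a separate experiment. The values of both groups did not overlap for 7 members (13.7%) upward and 3 (5.88%) downward, against 4.9% and 5.25% of all probes. The downward share was thus close to that of all probes.

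Among collagens, 1 of 8 rose. *col9a3* encodes a chain of type IX collagen, which coats the surface of type II fibrils in cartilage. Its log2 ratios on the active EBF3 arrays were 3.35, 3.06, 3.82 and 3.29 in replicates 1 to 4, and on the DEX control arrays -0.09, -0.25, -0.31 and -0.72. All 4 active EBF3 values thus exceed all 4 control values by a wide gap. The mean was 3.38 ± 0.32 (SD, n = 4), 10.4-fold higher with DEX (95% confidence interval of the log2 ratio 2.97 to 3.79, adjusted p = 0.000638 from limma). Against the DEX control the log2 difference was 3.72, 13.2-fold (interval 3.24 to 4.21, adjusted p = 9.71e-05 from limma). The signals of its probe were bright enough to be read on each array. On the active EBF3 arrays, untreated caps gave Cy5 signals of 626 to 1398, and Cy3 signals rose to 6402, 7909, 11759 and 13643.

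The other collagens did not pass the test. The probe for type II collagen α1, the main fibril of cartilage and of the notochord sheath, read -0.05, -0.30, -0.42 and -0.44 with active EBF3 and -0.24, -0.14, -0.25 and -0.51 in the DEX control, so that both groups cover the same range. The second type II probe, named type II', was dim and scattered between -1.91 and 1.02 over the 8 arrays. *col1a2*, a chain of the type I fibril, read 0.01, 1.91, 2.66 and 0.79 with active EBF3 (mean 1.34 ± 1.18, SD, n = 4, adjusted p = 0.129 from limma) and -0.03, 0.57, 0.32 and -0.16 in the DEX control. Its mean exceeded 2-fold but its SD between replicates was nearly as large as the change. *col6a1*, of the beaded filaments around cells, read -0.20, 0.42, 0.99 and 2.52 (adjusted p = 0.241 from limma), with the highest control value, 1.17, also in replicate 4. *col18a1*, of basement membranes, averaged -0.02 with active EBF3 and was below 0 on 4 of 4 DEX control arrays, at -0.10, -0.66, -0.99 and -0.79 (adjusted p = 0.182 from limma). *col1a1* and the collagen IV-like tag were above background on none of the arrays.

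Among the matrix glycoproteins, the thrombospondin gene rose, while fibronectin lay within 0.13 of 0 on all 8 arrays. *thbs3*, which encodes a pentameric calcium-binding matrix protein, read 2.20, 2.39, 3.53 and 3.67 with active EBF3. In the DEX control it read -0.16, 0.13, -2.07 and 0.07. The groups do not overlap, and the low control value of replicate 3 rests on a Cy3 signal of 7.70 that was not well above background. The mean with active EBF3 was 2.95 ± 0.76 (SD, n = 4), 7.71-fold higher (interval 2.21 to 3.69, adjusted p = 0.00533 from limma), and the difference from the DEX control was 3.46 (interval 2.19 to 4.72, adjusted p = 0.00872 from limma). On the active EBF3 arrays, untreated caps gave Cy5 signals of 109 to 251, all 4 well above background, while Cy3 of the DEX control was so on 1 of 4 arrays. The ratio was larger over replicates 3 and 4, at 3.60, than over replicates 1 and 2, at 2.29. With a normexp background correction it was 1.97 and not called (adjusted p = 0.0635 from limma).

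The fibronectin probe read 0.13, 0.00, 0.12 and 0.09 with active EBF3 and 0.04, -0.13, 0.00 and 0.00 in the DEX control. Its signals lay between 18010 and 39332 in either channel of the 8 arrays. The difference between the groups was 0.11 with an interval of -0.18 to 0.40 on the log2 scale. The interval leaves out a 2-fold change in either direction. *sparc*, whose product binds collagen and loosens cell attachment, read 0.53, -0.09, -1.04 and -0.71 with active EBF3 and -0.14, -0.94, -0.29 and -1.76 in the DEX control, where it was below 0 on 4 of 4 arrays (adjusted p = 0.231 from limma). Replicates of *sparc* therefore differed by more than the groups did. The laminin α1-like tag was above background on none of the arrays.

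**Figure D2:**
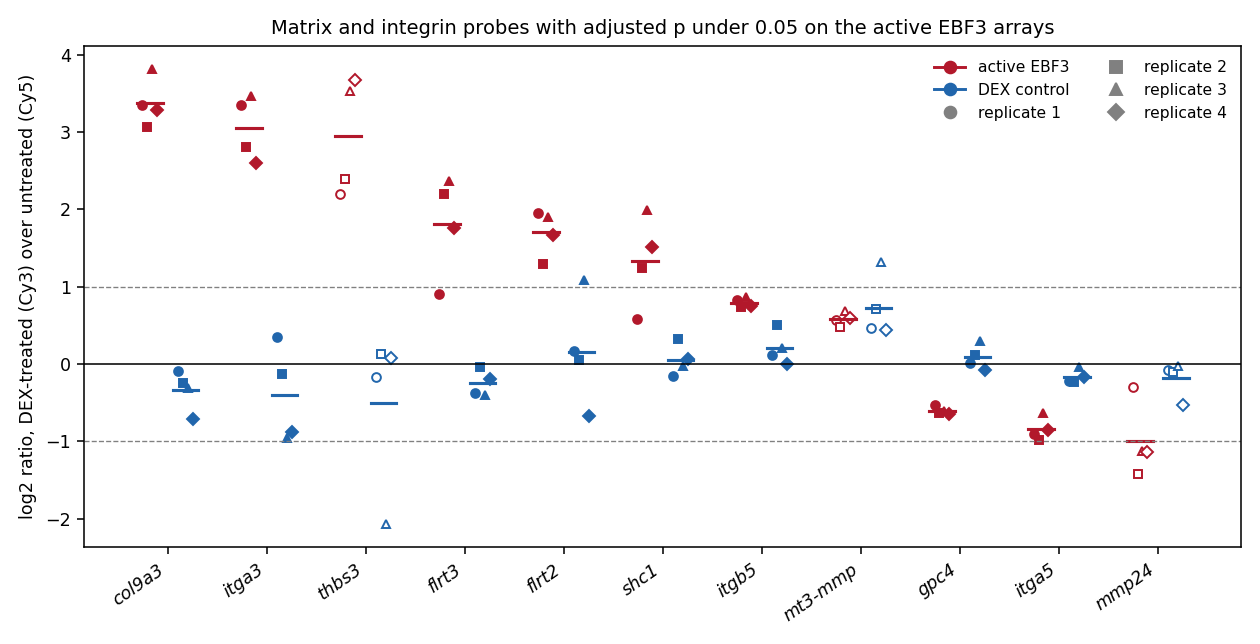
Log2 ratio on each array for the 11 members with adjusted p under 0.05 on the active EBF3 arrays (red, active EBF3; blue, DEX control; symbols give the replicate, short bars the mean of 4 arrays, dashed lines 2-fold). Open symbols mark the 3 members not well above background in both channels on all 8 arrays. *itgb5*, *gpc4* and *itga5* lie inside the 2-fold lines with narrow scatter, at means of 0.79, -0.60 and -0.84.

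Integrin subunits moved in different directions. Of the 9 probes, *itga3* was called higher, *itgb5* was higher and *itga5* lower at less than 2-fold, and 6 did not pass the test. *itga3* encodes the α3 subunit, which pairs with β1 as a receptor for laminins. It read 3.35, 2.81, 3.46 and 2.60 with active EBF3 and 0.35, -0.14, -0.95 and -0.88 in the DEX control. The lowest active EBF3 value lies far above the highest control value. The mean was 3.06 ± 0.42 (SD, n = 4), 8.32-fold higher (interval 2.58 to 3.53, adjusted p = 0.00126 from limma), and the difference from the DEX control was 3.46, 11-fold (interval 2.69 to 4.22, adjusted p = 0.000655 from limma). Its Cy3 signals with active EBF3 were 13362, 21970, 27147 and 24121, from Cy5 signals of 1310 to 3977 in untreated caps. In the DEX control it averaged 0.11 over replicates 1 and 2 and -0.91 over replicates 3 and 4.

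The α5 subunit gene moved the other way. *itga5*, whose product pairs with β1 as the main fibronectin receptor, read -0.91, -0.98, -0.63 and -0.85 with active EBF3 and -0.21, -0.23, -0.03 and -0.17 in the DEX control. Every active EBF3 value lies below every control value, and the replicates of each group are close together. The mean was -0.84 ± 0.15 (SD, n = 4), 1.79-fold lower (interval -1.16 to -0.52, adjusted p = 0.0177 from limma), and the difference from the DEX control was -0.68 (interval -1.0 to -0.36, adjusted p = 0.0309 from limma). *itgb5*, whose product pairs with αV to bind vitronectin, read 0.83, 0.74, 0.86 and 0.74 with active EBF3 and 0.12, 0.51, 0.21 and 0.01 in the DEX control. Its mean of 0.79 ± 0.06 (SD, n = 4) was 1.73-fold higher (adjusted p = 0.0167 from limma), while the difference of 0.58 from the DEX control had an interval of 0.24 to 0.93 and did not pass over all probes (adjusted p = 0.0804 from limma).

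**Figure D3:**
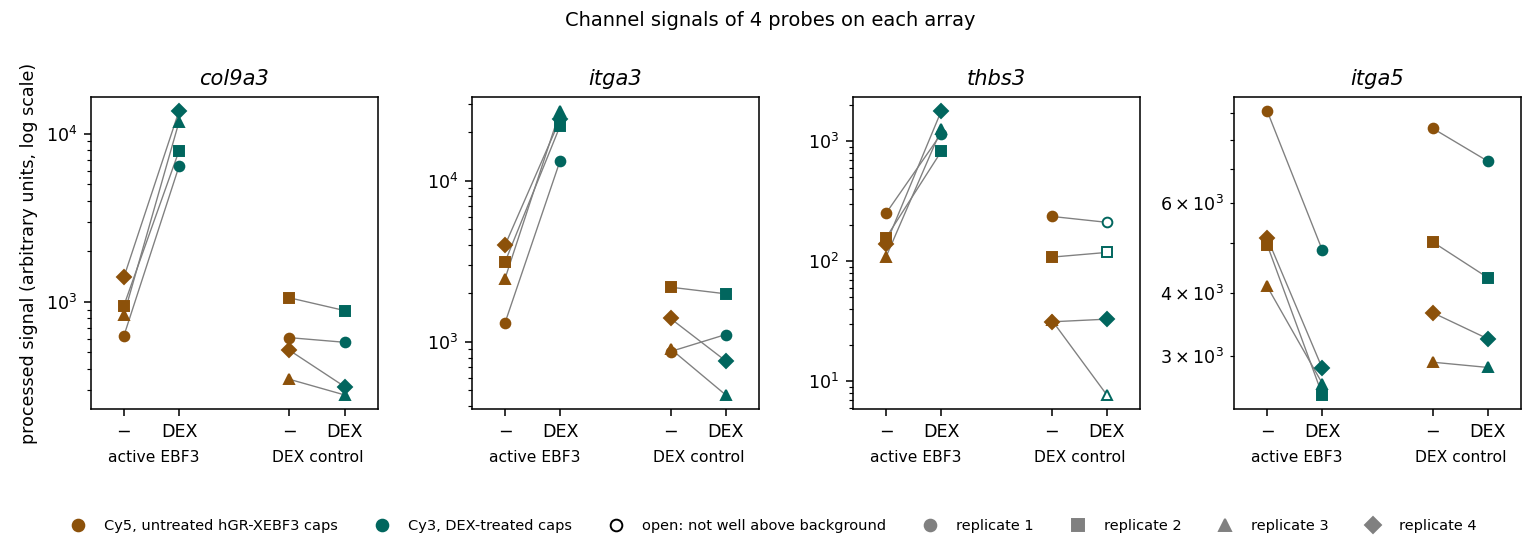
Processed signals of *col9a3*, *itga3*, *thbs3* and *itga5* on each array, on a log scale, with a line joining the untreated Cy5 signal (−) to the DEX-treated Cy3 signal of the same array. Open symbols were not well above background. The lines rise on all 4 active EBF3 arrays for *col9a3*, *itga3* and *thbs3* and fall for *itga5*, while the steepest control line is that of *thbs3* in replicate 3, which ends at 7.70.

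The β1 subunit, the common partner of α3 and α5, showed a smaller and less even shift. *itgb1* read 0.45, 1.08, 0.65 and -0.06 with active EBF3 and 0.20, 0.55, 0.33 and 0.13 in the DEX control. The groups overlap, and the mean of 0.53 ± 0.47 (SD, n = 4) did not pass the test (adjusted p = 0.179 from limma). *itgav*, the partner of β5, read 0.02, -0.01, -0.14 and -0.28 with active EBF3, with a difference of -0.11 from the DEX control (interval -0.44 to 0.22). The tag that resembles integrin αM read -0.48, -0.75, -1.05 and -1.93 with active EBF3 and -0.01, 0.30, 0.61 and -0.34 in the DEX control. Its groups do not overlap, and its mean of -1.05 ± 0.63 (SD, n = 4) missed the threshold (adjusted p = 0.0661 from limma) and passed it under 4 alternative settings (adjusted p between 0.0297 and 0.0407 from limma). The subunit to which this tag belongs in the frog is not established by the files. *itga4* read -0.15, 0.73, 1.37 and 2.65 with active EBF3, with Cy5 not well above background on any array (adjusted p = 0.175 from limma). Its Cy3 was well above background on the active EBF3 arrays of replicates 3 and 4, at 32.6 and 32.9, and on 0 DEX control arrays. *itga2* and the α4-like tag were above background on none.

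Of the 3 cell surface proteoglycans, *gpc4* was lower at less than 2-fold and the syndecans did not pass the test. *gpc4* encodes glypican-4, which in *Xenopus* takes part in the Wnt signalling that drives convergent extension. It read -0.53, -0.63, -0.60 and -0.65 with active EBF3 and 0.01, 0.12, 0.30 and -0.07 in the DEX control. No values overlap, and the 4 active EBF3 values are close together. The mean was -0.60 ± 0.05 (SD, n = 4), 1.52-fold lower (interval -0.90 to -0.31, adjusted p = 0.038 from limma), and the difference from the DEX control was -0.69 (interval -1.01 to -0.37, adjusted p = 0.0276 from limma). *sdc2*, a syndecan of the early ectoderm, read 0.31, 0.59, 0.38 and -0.09 with active EBF3 and was below 0 on 4 of 4 DEX control arrays, at -0.08, -0.08, -0.28 and -0.42. Its difference of 0.51 did not pass (interval 0.09 to 0.93, adjusted p = 0.231 from limma). *sdc3*, known from the nervous system, ranged from 0.42 to -1.16 with active EBF3 (adjusted p = 0.462 from limma).

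None of the 13 matrix metalloproteinases, 4 ADAMs or 1 TIMP was called. *mmp24*, a membrane-bound metalloproteinase known in mammals mainly from neurons, came closest and read -0.29, -1.43, -1.13 and -1.14 with active EBF3. In the DEX control it read -0.08, -0.11, -0.02 and -0.54, so that the groups overlap only between active EBF3 replicate 1 and control replicate 4. Its mean of -0.997 ± 0.49 (SD, n = 4) passed the test at just under 2-fold (adjusted p = 0.0468 from limma), and the difference from the DEX control of -0.81 did not (adjusted p = 0.16 from limma). Without replicate 1 it was called lower on the active EBF3 arrays, at -1.23 (adjusted p = 0.0146 from limma). It was dim, with Cy3 well above background on 2 of 4 active EBF3 arrays. The names of this probe and of the one called *mt3-mmp* both matched the gene symbol *mmp16.L*. Whether both probes measure that gene was not tested. *mt3-mmp* was above background on none of the arrays, where its mean with active EBF3 was 0.58 ± 0.09 (SD, n = 4, adjusted p = 0.0446 from limma), and it stood at 0.73 in the DEX control.

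The 3 enzymes measured well above background throughout did not pass the test. *mmp15*, a membrane-type metalloproteinase, read -0.05, 0.26, 0.27 and 0.13 with active EBF3, with a difference of 0.14 from the DEX control (interval -0.20 to 0.47). *mmp13*, a collagenase, differed by -0.23 (interval -0.78 to 0.32), and *adam9*, a membrane protease of the disintegrin family, by -0.51 (interval -1.27 to 0.25). *mdc11b*, whose name matched the gene symbol *adam22.L*, read -0.04, 1.38, 0.81 and 0.34 with active EBF3 and was below 0 on 4 of 4 DEX control arrays. Its difference of 1.01 did not pass (interval 0.30 to 1.71, adjusted p = 0.143 from limma). *mmp21* averaged 1.08 with Cy3 well above background on 1 of 4 active EBF3 arrays (adjusted p = 0.203 from limma).

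*stromelysin-3* differed between replicates 1 and 2 and replicates 3 and 4 in both groups, and *timp3* did so in the DEX control. *stromelysin-3*, a metalloproteinase known from tail resorption in the tadpole, read 0.01, 0.57, -3.11 and -1.91 with active EBF3 and -0.31, 0.75, -2.95 and -2.16 in the DEX control. Both groups were low in replicates 3 and 4 alone, with Cy5 well above background there and Cy3 not well above background on any of the 8 arrays. The difference between the groups was 0.06 (interval -2.25 to 2.36). *timp3*, an inhibitor that stays bound to the matrix, read -0.41, 0.47, 0.21 and 0.94 with active EBF3 and -0.33, 0.68, 2.05 and 2.10 in the DEX control. It is the 1 member past an unadjusted p of 0.05 with a 2-fold change in the DEX control (adjusted p = 0.247 from limma), and its signal was well above background in Cy3 of 1 control array only, replicate 3. Without replicate 1 it was called higher in the DEX control, at 1.61 (adjusted p = 0.0432 from limma).

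For the 12 members well above background nowhere, the scanner software used replacement values. It did so in both channels for 5 to 11 of them per array and in at least 1 channel for 9 to 12. Their median log2 ratio was -0.25, 0.67, 0.60 and 0.28 on the active EBF3 arrays of replicates 1 to 4 and -0.14, 0.75, 0.77 and 0.43 on the DEX control arrays. These medians differ more between replicates than between the groups. The 12 comprise *col1a1*, *itga2*, *mmp1*, *mmp2*, *mmp7*, *mmp9*, *mt3-mmp* and 5 tags. Signals this low leave their presence and any change undecided.

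**Figure D4:**
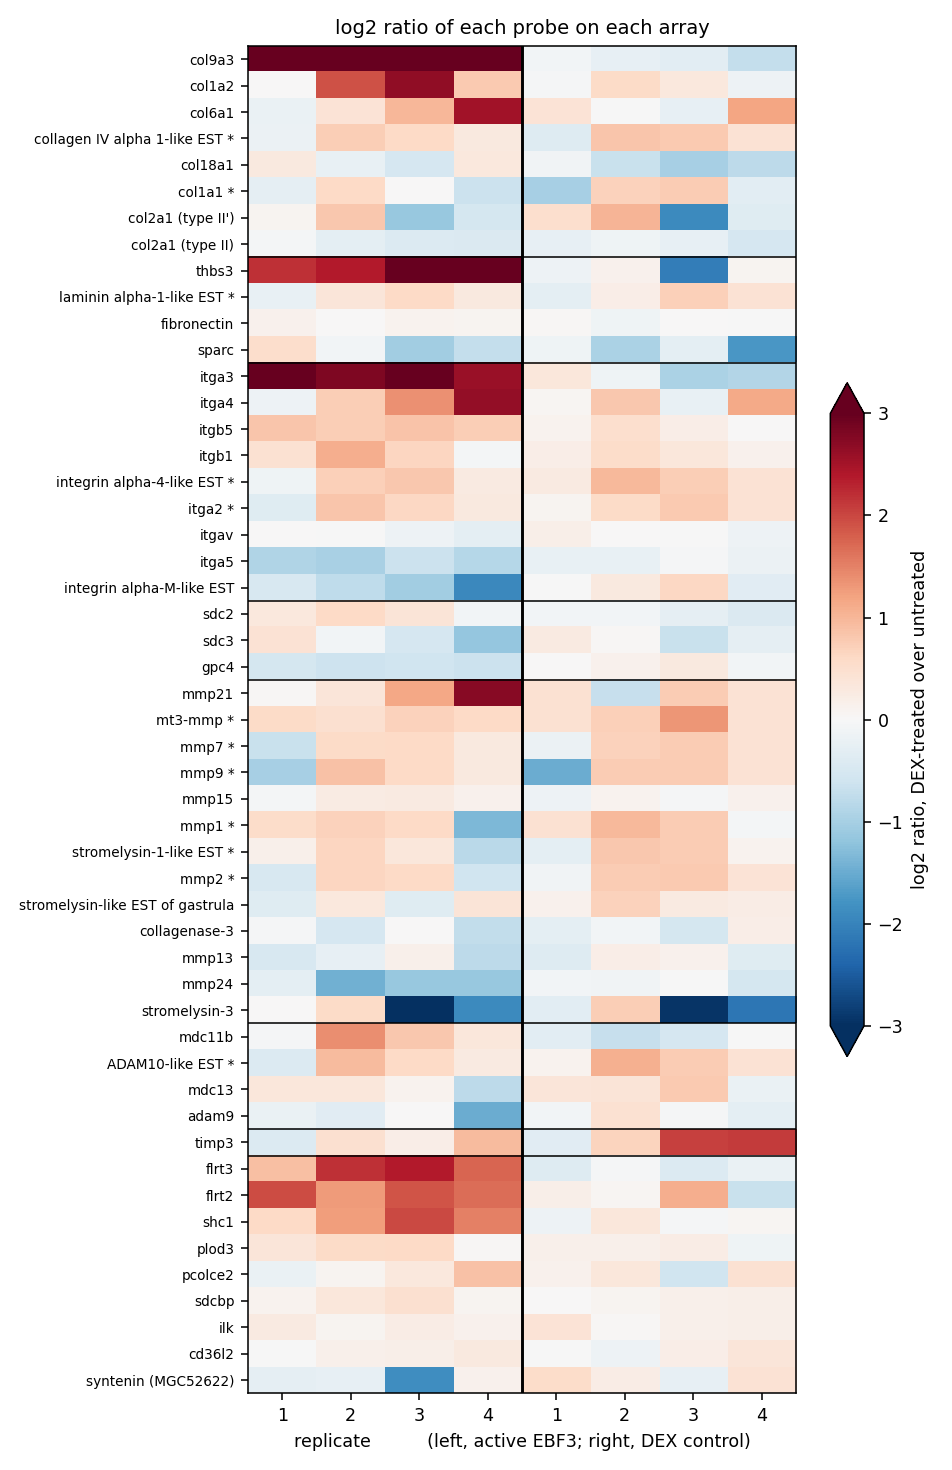
Log2 ratio of each of the 51 probes (rows, by class, ordered by the active EBF3 mean) on each of the 8 arrays (columns, active EBF3 left and DEX control right, replicates 1 to 4). Colors run from -3 to 3 and are capped there, and an asterisk marks the 12 probes that no array measured well above background. The rows of *stromelysin-3* are dark in replicates 3 and 4 of both groups.

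Of the 9 other proteins, 3 rose. FLRT2 and FLRT3 are transmembrane proteins with leucine-rich repeats and a fibronectin-like domain. FLRT3 is known in *Xenopus* as a modulator of FGF signalling and of cadherin adhesion. *flrt3* read 0.91, 2.20, 2.37 and 1.75 with active EBF3 and -0.38, -0.04, -0.40 and -0.19 in the DEX control. Its lowest active EBF3 value, in replicate 1, is still above all control values. The mean was 1.81 ± 0.65 (SD, n = 4), 3.5-fold higher (interval 1.15 to 2.46, adjusted p = 0.0152 from limma), and the difference from the DEX control was 2.06 (interval 1.36 to 2.76, adjusted p = 0.00602 from limma). *flrt2* read 1.96, 1.29, 1.90 and 1.67 with active EBF3 and 0.17, 0.06, 1.08 and -0.68 in the DEX control. The groups do not overlap, although the control values range widely. Its mean was 1.70 ± 0.30 (SD, n = 4), 3.25-fold higher (interval 1.30 to 2.10, adjusted p = 0.0043 from limma), and the difference from the DEX control was 1.55 (interval 0.75 to 2.34, adjusted p = 0.0431 from limma).

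*shc1* encodes an adaptor that links receptor tyrosine kinases to Ras, and it entered the set because its name means src homology and collagen. It read 0.59, 1.25, 1.98 and 1.51 with active EBF3 and -0.15, 0.33, -0.03 and 0.06 in the DEX control. The groups do not overlap, and the value of replicate 1 lies below 2-fold. The mean was 1.33 ± 0.58 (SD, n = 4), 2.52-fold higher (interval 0.73 to 1.93, adjusted p = 0.0293 from limma), and the difference from the DEX control was 1.28 (interval 0.63 to 1.93, adjusted p = 0.0409 from limma). Without replicate 2, 3 or 4, *flrt3* and *shc1* were no longer called on the active EBF3 arrays, with adjusted p between 0.0588 and 0.133 (limma). Against the DEX control, *col9a3* and *itga3* alone were called without replicate 2, and again without replicate 4, while *flrt2* was lost without replicate 1 and *flrt3* and *shc1* without replicate 3.

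The other 6 proteins of this class did not pass the test on the active EBF3 arrays. *ilk*, the integrin-linked kinase at the inner face of adhesion sites, read 0.27, 0.08, 0.21 and 0.14 with active EBF3 and 0.41, 0.04, 0.15 and 0.18 in the DEX control, and its difference of -0.02 had an interval of -0.34 to 0.31. *plod3*, a lysyl hydroxylase of collagen, averaged 0.40 (adjusted p = 0.17 from limma), and *pcolce2*, an enhancer of procollagen trimming, 0.26 (adjusted p = 0.436 from limma). The scavenger receptor relative *cd36l2* was at 0.15 and *sdcbp*, the syndecan-binding protein syntenin, at 0.25. A second syntenin probe read -0.27, -0.24, -1.86 and 0.12, so that its mean of -0.56 rests on replicate 3.

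Genes that work beside the members were examined as 3 further lists. These held proteins of cell-matrix adhesions, other matrix proteins with the enzymes of hyaluronan, and enzymes that process or cross-link collagen. On the active EBF3 arrays, 3.03% of all probes were called higher and 2.84% lower, which are the shares to set beside each list. Among the 11 adhesion probes, 1 rose and 0 fell there. It is one of a pair of probes for dystroglycan, the laminin receptor of the dystrophin complex, with a mean of 1.57 ± 0.43 (SD, n = 4, adjusted p = 0.00979 from limma). The other, *dag1*, averaged 0.98 (adjusted p = 0.0262 from limma) and was called against the DEX control, at 1.03 (adjusted p = 0.0291 from limma). Paxillin averaged 0.09, *src* 0.26 and a β-parvin-like probe 0.66 (adjusted p = 0.052 from limma). Over the 11 probes the median was 0.21.

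Of 8 other matrix probes, 6 had a value on all 4 active EBF3 arrays, and of these 1 fell and 0 rose, with a median of -0.07. It is *HAS2*, the hyaluronan synthase, with a mean of -1.81 ± 0.62 (SD, n = 4, adjusted p = 0.0135 from limma) and a difference of -1.73 from the DEX control (adjusted p = 0.0115 from limma). Of 4 processing enzymes, 1 rose and 0 fell, with a median of -0.07. It is *lox*, lysyl oxidase, which cross-links collagen and elastin, with a mean of 1.70 ± 0.41 (SD, n = 4, adjusted p = 0.00726 from limma) and a difference of 1.28 from the DEX control (adjusted p = 0.0389 from limma). Untreated caps gave a signal well above background on 2 of 4 active EBF3 arrays. The tolloid proteases *Bmp1* and *TLL2*, which trim procollagen, averaged -0.11 and -0.06.

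Markers of other cell types moved on the same active EBF3 arrays, where 3.03% of all probes were called higher and 2.84% lower. Of 11 muscle probes 3 were called higher, *MyoD* (mean 6.31), *tnnc1* (3.13) and fast troponin T (1.67). A second probe described as cardiac troponin C, as *tnnc1* is, averaged -0.33 and was not called. Called lower were 2, *ckm* (-2.11) and slow troponin I (-1.70). In the DEX control, *ckm* averaged -1.02 and slow troponin I 0.02. The difference from the DEX control was called for slow troponin I (-1.71, adjusted p = 0.0239 from limma). It was not called for *ckm* (-1.09, adjusted p = 0.178 from limma). The median log2 ratio of the muscle probes was 0.47 over the active EBF3 arrays, and per array it ran from 0.13 to 1.52 there and from -0.08 to 0.27 in the DEX control. The log2 ratio of their summed signals was 3.82 to 5.03 on the active EBF3 arrays and -0.83 to 0.04 in the DEX control. Only *MyoD* had a mean as high as these active EBF3 sums, so they do not describe the muscle list as a whole. All 3 blood and endothelial regulators (*SCL*, *lmo2* and *hex*) were called higher, with a summed ratio of 5.03 to 5.88 against -0.36 to 0.23. Of 2 endoderm probes 1 was higher, *gata-5b* (mean 2.71), and of 4 neural crest probes 1, *foxd3* (mean 1.22). The other crest probes were not called and went both ways, *slug* at 0.93 ± 1.72 (SD, n = 4), *SOX9* at -0.99 and *Sox10* at -0.24. Summed over the whole list, the ratio was 2.18 to 2.89 against -0.08 to 0.34 for endoderm. The other endoderm probe, *gata4*, averaged 2.04 ± 1.99 (SD, n = 4) and was not called. For neural crest the summed ratio was -0.87 to 0.03 against -0.44 to -0.16. Of 2 epidermal probes 1 was lower, *Xepsin* (mean -2.53), and the summed ratio of both was -2.84 to -1.69 against 0.37 to 0.59. The other, *GRHL1*, averaged -0.23 (adjusted p = 0.561 from limma), outside the range of that active EBF3 sum. The 1 cement gland probe was lower (-5.95 to -3.20 against -2.54 to 0.14). None of 3 axial mesoderm probes was called (summed ratio -0.93 to 0.07 against -1.36 to -0.49), and *Xbra* and *bra3* were dim. The part of these shifts in the changes of *col9a3*, *itga3*, *thbs3*, *flrt2*, *flrt3*, *shc1*, *itga5* and *gpc4* was not tested.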

How the data were processed

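RNA of *Xenopus laevis* animal caps was hybridized to 8 two-color Agilent arrays, 4 per group. The authors deposited Feature Extraction output (per the file headers version 8.1.1.1 for replicate 1 and 9.1.3.1 otherwise), in which processed signals are intensities with background subtracted and LOWESS normalization within arrays, and a surrogate value for dim spots. The deposited log10 ratios of processed values were checked to equal the scanner's ratio with its sign turned for 99.8% to 100% of filled probes (within 0.001). Their column medians lay between -0.05 and 0.01 on the log2 scale.

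For each spot, the log2 ratio Cy3/Cy5 was taken, leaving out control and non-uniform spots, then averaged per probe. Arrays were not centered. R 4.3.3, limma 3.58.1 and the data.table package (1.17.8) were used (lmFit and eBayes, two-sided, Benjamini-Hochberg over all probes). In place of the methods' unpaired t-test, limma was the main test, since both channels share an array. Scripts were tested on simulated data. Gelatinases, collagenases and stromelysins were taken as matrix metalloproteinases, and metalloprotease-disintegrins as ADAMs. Probes of 1 gene were not merged. Names follow the array design. By gene name or gene number, not accession, 30 of 51 members matched 1 RefSeq symbol, 4 several and 17 none. The members and lists were chosen with earlier results of these data known. By rule, members called in any comparison, fibronectin, integrin subunits, syndecans, glypicans, laminins, SPARC and TIMPs are named with values. Other members given with values, such as the collagens besides *col9a3*, the proteases and the partner proteins not called, were chosen after their values were seen.

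Same-numbered arrays deviated together (correlations of deviations from group means over 21197 probes of 0.591, 0.493, 0.366 and 0.574, against -0.339 to 0.0483 for other pairs; probes are not independent), so replicate numbers pair the arrays. Intervals and p-values of the difference from the DEX control came from a fit without this pairing, except where the replicate block is named. Alternatives varied the test, background, centering, spot and dim-probe filters, array design or replicate as a block, and left out each replicate. The number of arrays limits the precision. The neural marker list is not reported here.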

Additional observations from a re-analysis of the deposited data

Results flagged for a closer look

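In each group, the 4 arrays of the 23 named members were checked for a highest or lowest value far from the rest (Dixon's 95% critical value for 4 samples). Of 46 groups tested, 2 held such a value, where chance gives about 1 in 20. The log2 ratio of *thbs3* on the DEX control array of replicate 3 was -2.07, while the other 3 lay between -0.16 and 0.13. The log2 ratio of *mmp24* on the DEX control array of replicate 4 was -0.54, and the other 3 lay between -0.11 and -0.02.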

How the results depend on the processing

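*col9a3* and *itga3* were called higher under every alternative run, on the active EBF3 arrays and against the DEX control. On the active EBF3 arrays, 4 members remained called higher with the methods' t-test (*col9a3*, *itga3*, *thbs3* and *flrt2*) and 5 under normexp, which lost *thbs3*. The smaller changes of *itga5*, *gpc4*, *itgb5*, *mmp24* and *mt3-mmp* on these arrays did not pass with that t-test (adjusted p from 0.607 to 1). Against the DEX control, normexp lost *thbs3* and *flrt2*, and centering on the median or array design as a block lost *flrt2*. With 1 replicate left out, members called higher numbered 4 to 6 on the active EBF3 arrays and 2 to 5 against the DEX control, and those called lower 0 to 1 and 0. *mmp24* was the 1 called lower without replicate 1. In the DEX control 0 to 1 were called higher, the 1 being *timp3* without replicate 1.

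The integrin αM-like tag, not called in the main test, was called lower on the active EBF3 arrays in 4 settings. Centering on the median called 2 members lower, this tag (-1.15, adjusted p = 0.0407 from limma) and *mmp24* (-1.10). The tag was the 1 member called lower with the dim-probe filter, with the deposited ratios and with array design as a block (adjusted p between 0.0297 and 0.0397 from limma). Against the DEX control, the tag was the 1 member called lower with the dim-probe filter (adjusted p = 0.0444 from limma) and with the replicate block (adjusted p = 0.0474 from limma). The replicate block left the 6 higher calls against the DEX control in place. The cause of these differences was not tested. No called value changed sign, while 30 values of members not called did, such as *fibronectin* (0.08 to -0.02 with centering on the median) and *itga2* (0.34 to -0.03), *timp3* (0.30 to -0.06), *sdc3* (-0.33 to 0.00) and the integrin α4-like tag (0.42 to -0.02) under normexp, all on the active EBF3 arrays. For single named members, 766 values kept their call or, where not called, moved by less than the spread between replicates, 24 lost a call, 9 gained one and 14 moved by more than the spread between replicates.

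Dim signal limits most of the proteases, and with 4 arrays a change under 2-fold passed where replicates lay close together, as for *gpc4*.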
